A study of Homo sapiens with 12 samples.

Results

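RNA of 10 S100 genes was followed in all 12 libraries of a study of PC9 cells, an established line from a lung adenocarcinoma whose EGFR gene carries an activating mutation. The genes are S100A2, S100A4, S100A6, S100A8, S100A9, S100A10, S100A11, S100A14, S100A16 and S100P, picked by name out of 30225 genes in the deposited table. The choice of these 10, and the emphasis on S100A9 and S100P, were made with earlier results of the same data known. All cells had received gefitinib, an inhibitor of the EGFR kinase, at 300 nM. The 4 groups of 3 libraries are PC9 control cells after 24 h of the drug, PC9 shAGR2 cells (AGR2 knockdown by short hairpin RNA) after 24 h, PC9 control cells after 72 h, and PC9 oeAGR2 cells (AGR2 overexpression) after 72 h. The labels do not describe the vectors, the controls' own vector, the number of hairpins or whether the populations were clones, and nothing says that the 3 replicates came from separate cultures, so each p measures the spread between these libraries, which may be technical. Cells without gefitinib were not analysed here. Each value is a TPM, a measure of transcript abundance from reads divided by transcript length and scaled to 1 fixed total per library. Levels can thus be set side by side between genes, while the read depth behind them is unknown.

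S100 proteins are small proteins with a pair of EF-hand calcium-binding loops that mostly act as dimers. Inside cells they bind targets such as annexins, myosin and p53, often in a calcium-dependent way. Several are also secreted, and outside the cell S100A8, S100A9 and S100P are known as ligands of the receptor RAGE, the product of AGER. Most human S100 genes lie in a cluster on chromosome 1 within the epidermal differentiation complex, whereas S100P lies alone on chromosome 4. S100A8 and S100A9 form the heterodimer calprotectin, abundant in neutrophils and monocytes and induced in stressed epithelium, and S100P is known from placenta and from many carcinomas.

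AGR2 itself stood at 31.2 to 32.9 TPM in the 24 h controls, 0.592 to 0.769 in the knockdown, 7.82 to 8.67 in the controls at 72 h and 10.7 to 12.1 in the overexpressing cells, so no library went against its label within its time point. Replicate 1 of the 24 h controls and replicate 1 of the overexpressing cells each held the highest value of their group for 8 of the 9 S100 genes tested. Some results, among them those of S100P and S100A4, are given with and without them. On the log2 scale, the median change over all genes tested was 0.35 in the knockdown, 0.30 from 24 h to 72 h in the controls and 0.03 with overexpression. Small changes of S100 genes in the first 2 of these comparisons therefore depend on how libraries are scaled. All 7 epithelial markers listed averaged at least 1 TPM in every group, with sums of 2824 to 3064 TPM in the knockdown libraries and 5564 to 9479 in the others. Keratins carried the lower sum. From the 24 h controls to the knockdown KRT18 went from 3684 to 1501 TPM, KRT19 from 1729 to 799, KRT7 from 677 to 398 and KRT8 from 404 to 156. The other markers did not follow, with EPCAM at 39.9 and 47.3 TPM, CDH1 at 7.46 and 7.02 and NKX2-1 at 1.05 and 1.06. Fibroblast markers summed to 3.61 to 8.72 TPM, mostly COL1A1, lymphocyte markers to at most 0.29 TPM and endothelial markers to at most 1.24 TPM in any library. In bulk RNA, fewer cells of a kind and less RNA per cell cannot be told apart.

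Of the 10 genes, 9 passed the filter of at least 1 TPM in at least 3 libraries. In the knockdown 4 of these 9 rose (S100A9, S100A2, S100A16 and S100A6), 3 fell (S100P, S100A4 and S100A10) and 2 did not pass the test (limma, adjusted p below 0.05 over 15721 genes). Over all genes tested 65.6% passed in this comparison, 53.6% higher and 11.9% lower. After median-ratio rescaling, in which every library is divided by its median ratio to the geometric mean over libraries, 59.3% passed, 29.4% higher and 29.9% lower, and 3 S100 genes rose and 5 fell. With overexpression 3 of the 9 rose (S100P, S100A4 and S100A9), 5 fell (S100A2, S100A10, S100A11, S100A16 and S100A6) and 1 did not pass, against 55.4% of all genes passing, 29.9% higher and 25.5% lower (56.4%, 27.8% and 28.6% after rescaling). The groups did not overlap for 7 of the 9 genes in the knockdown and for 7 in the overexpression, where 70.8% and 63.1% of all genes tested had groups that did not overlap. Since 65.6% and 55.4% of the genes tested passed in the 2 comparisons, nothing is read from the number of S100 genes called, and what follows rests on the size and direction of each gene's own change. The median change of the 9 was 0.15 in the knockdown and -0.38 in the overexpression on the log2 scale.

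**Figure D1:**
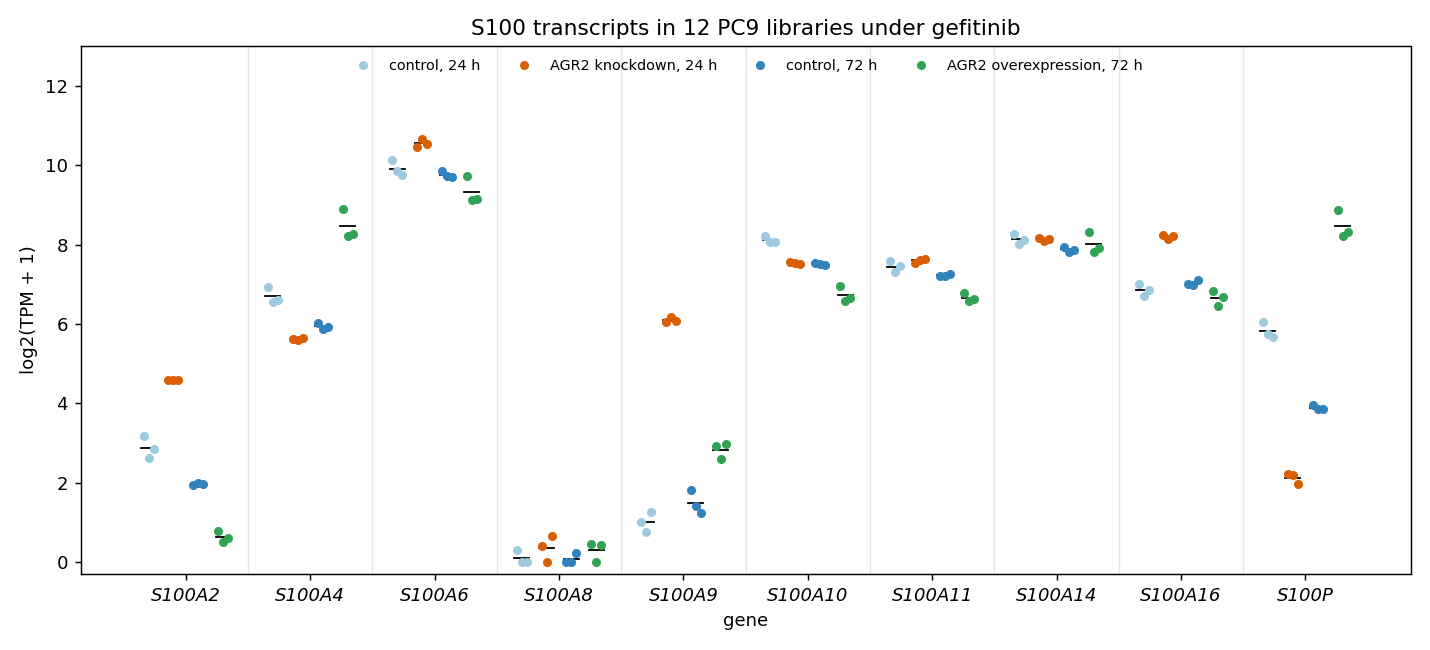
TPM of the 10 S100 genes on a log2(TPM + 1) axis, with 1 point per library, coloured by group, and a bar at the mean of each group of 3. S100A9 stands highest in the 3 knockdown libraries (65.7 to 71.0 TPM), S100P and S100A4 highest in the 3 overexpressing libraries, and S100A8 at or near 0 in all 12.

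S100A9 (ENSG00000163220, chromosome 1, 153357854 to 153361023, plus strand, GRCh38), the larger subunit of calprotectin, was almost silent in control cells and high in the knockdown. The 24 h control libraries held 1.01, 0.711 and 1.39 TPM in replicates 1 to 3, and the knockdown libraries 65.7, 71.0 and 66.7 TPM. The 72 h controls held 2.51, 1.67 and 1.38 TPM, and the overexpressing libraries 6.56, 5.03 and 6.91 TPM. In both comparisons the engineered libraries lay above every control. The mean rose 65.4-fold in the knockdown (log2 fold change 5.09, SE 0.16, limma adjusted p = 5.15e-09), the change ranked 3 by size among 15721 genes, and 3.33-fold with overexpression (log2 fold change 1.34, SE 0.16, limma adjusted p = 6.04e-05), ranked 762. The log2 values are of TPM + 1, which compresses low levels, and with a pseudocount of 0.1 they became 5.94 and 1.71. The overexpression effect was smaller than the knockdown effect by 3.75 on the log2 scale (SE 0.23, limma adjusted p = 2.7e-07). S100A9 thus differed from S100P in that it rose in both engineered populations rather than moving in opposite directions.

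S100A8 (ENSG00000143546, chromosome 1, 153390032 to 153391073, minus strand), the other calprotectin subunit, stayed below 1 TPM throughout. It was listed at 0 in 6 of 12 libraries and reached at most 0.587 TPM, so it failed the filter and was not tested. The knockdown libraries read 0.326, 0 and 0.587 TPM and their controls 0.245, 0 and 0. The overexpressing libraries read 0.38, 0 and 0.353 TPM and their controls 0, 0 and 0.175, and the groups overlapped in both comparisons. With S100A8 near 0, the log2 ratio of S100A9 to S100A8 (each TPM + 1) has almost only the pseudocount below it. It therefore largely repeats the level of S100A9 and still moves with library scaling. This ratio was 5.42 to 6.17 in the knockdown and 0.69 to 1.26 in its controls. With overexpression it was 2.45 to 2.59 against 1.02 to 1.81. An exact two-sided permutation test gave p = 0.1 for each, the smallest that 3 against 3 libraries allow. With a pseudocount of 0.1 the difference with overexpression fell from 1.12 to 0.71 (p = 0.6 by the exact permutation test), whereas that in the knockdown was 4.92 in place of 4.84.

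Markers of myeloid cells, in which S100A8 and S100A9 are usually made together, were set beside this. Of 9 listed, 7 were in the table. Their summed level was 51.8 to 63.3 TPM in the controls at 24 h and 127 to 154 in the knockdown, and 111 to 113 in the controls at 72 h and 62.9 to 73.1 with overexpression. Nearly all of it was CD68, a lysosomal protein that many cell types express, at 49.5 to 151 TPM. PTPRC, the leukocyte common antigen, was at most 0.0213 TPM, and LYZ at most 1.81, CD14 at most 2.19, CSF3R at most 0.985, ITGAM at most 0.517 and CSF1R at most 0.478 TPM in any library. CD68 moved with S100A9 in the knockdown and against it with overexpression, and its part in the result was not tested.

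S100P (ENSG00000163993, chromosome 4, 6693878 to 6697170, plus strand) fell in the knockdown and rose with overexpression. Its libraries read 65.4, 52.5 and 50.2 TPM in the controls at 24 h and 3.66, 3.58 and 2.91 in the knockdown. They read 14.6, 13.6 and 13.4 TPM in the controls at 72 h and 467, 296 and 319 in the overexpressing cells. Neither pair of groups overlapped. The mean was 16.5-fold lower in the knockdown (log2 fold change -3.70, SE 0.16, limma adjusted p = 3.56e-08) and 26.0-fold higher with overexpression (log2 fold change 4.58, SE 0.16, limma adjusted p = 1.46e-08). The overexpression effect exceeded the knockdown effect by 8.27 (SE 0.23, limma adjusted p = 1.74e-09), the difference ranked 1 among all genes tested. Without replicate 1 of the 24 h controls and replicate 1 of the overexpressing cells the 2 effects were -3.58 and 4.37. The order of the group means was knockdown, 72 h control, 24 h control and overexpression, with no overlap between neighbours. For AGR2 itself the overexpressing cells stood below the 24 h controls, at means of 11.2 and 31.9 TPM, whereas S100P stood above them, at 361 and 56.0 TPM.

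S100A4 (ENSG00000196154, chromosome 1, 153543613 to 153550136, minus strand), which binds non-muscle myosin and is known for promoting cell motility, had the same order of groups as S100P. Its libraries read 120.3, 93.1 and 96.0 TPM in the controls at 24 h and 48.0, 47.6 and 48.7 in the knockdown. They read 64.3, 57.6 and 59.8 TPM in the controls at 72 h and 472, 294 and 309 with overexpression, and no neighbouring groups overlapped. It fell 2.15-fold in the knockdown (log2 fold change -1.08, SE 0.16, limma adjusted p = 0.000174) and rose 5.91-fold with overexpression (log2 fold change 2.51, SE 0.16, limma adjusted p = 7.36e-07). S100A4 therefore went in the same directions as S100P, with a smaller change in both comparisons. Without both replicate 1 libraries named above the effects were -0.96 and 2.30.

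S100A2 (ENSG00000196754, chromosome 1, 153561108 to 153567890, minus strand), a mainly nuclear S100 protein of basal epithelium that binds p53, went the other way. Its libraries read 8.06, 5.15 and 6.28 TPM in the controls at 24 h and 23.1, 23.3 and 23.2 in the knockdown. They read 2.86, 2.99 and 2.95 TPM in the controls at 72 h and 0.73, 0.434 and 0.516 with overexpression. It rose 3.57-fold in the knockdown (log2 fold change 1.71, SE 0.12, limma adjusted p = 7.55e-07) and fell 5.24-fold with overexpression (log2 fold change -1.34, SE 0.12, limma adjusted p = 7.26e-06). From the lowest group, overexpression, to the highest, the knockdown, its mean differed 41.4-fold, and no neighbouring groups overlapped. An unnamed gene overlaps S100A2 on the same strand, so their reads may not be fully separable. Of 5 squamous and basal markers, all in the table, the summed level was 72.8 to 82.3 TPM in the 24 h controls, 172 to 186 in the knockdown, 194 to 203 in the controls at 72 h and 19.98 to 24.99 with overexpression. KRT6A carried the rise of this sum in the knockdown, at a mean of 37.6 TPM in the controls at 24 h and 152 in the knockdown (log2 fold change 1.99, limma adjusted p = 6.43e-09), while KRT5 fell there from 39.9 to 26.5 TPM (-0.57, adjusted p = 0.000127). With overexpression KRT5 fell from 98.3 to 0.800 TPM and KRT6A from 99.4 to 7.15, whereas KRT14 rose from 1.38 to 13.8 TPM (log2 fold change 2.62, limma adjusted p = 1.64e-07). TP63 and DSG3, the other 2 markers, stayed at or below 0.149 and 0.0865 TPM in every library. The part of these markers in the S100A2 result was not tested.

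**Figure D2:**
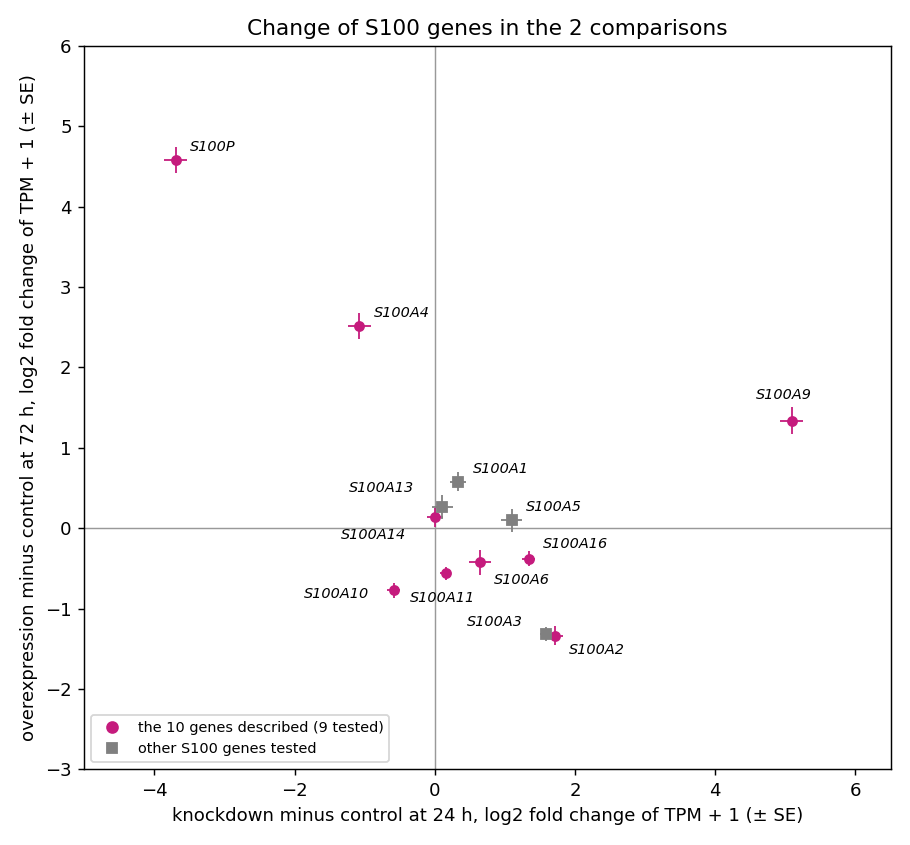
Log2 fold change (TPM + 1) of each S100 gene tested in the knockdown at 24 h (horizontal axis) and the overexpression at 72 h (vertical axis), with bars of 1 SE from limma. S100P lies far to the upper left (-3.70 and 4.58) with S100A4 towards it, S100A9 lies to the right above 0 (5.09 and 1.34), and S100A2 and S100A3 lie to the lower right.

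The start sites of these genes were compared in RefSeq's promoter sequences (GRCh38.p14), of which 250 bases before the annotated start were searched on both strands for the letters TATAAA of the core promoter box of that name, TGANTCA for AP-1, GGGCGG for the GC box and TTNNGCAA for C/EBP. All 10 genes had an entry, and where several starts were listed the nearest to the start in the deposited table was taken. TATAAA was found in 4 of the 10, at 29 bases before the start in S100A9 and S100A8, 28 in S100P and 31 in S100A4, and in 10.7% of all 35116 promoters of the reference. TGANTCA was found in S100A2 alone, 52 bases before the start, and in 6.57% of all promoters. GGGCGG was found in S100A6, S100A9, S100A10 and S100A11 (42.6% of all promoters) and TTNNGCAA in S100A11 (9.05%). A match is only a run of letters, and nothing was measured of binding. The sequences of the genes with TATAAA or TGANTCA are shown 5′ to 3′ on the gene's strand, ending at the base before the start, with these letters in capitals. For S100A4 the RefSeq start lies 4330 bases, for S100A2 2046 bases and for S100A11 10903 bases inside the start in the deposited table.
S100A9, chr1:153357604-153357853, plus strand: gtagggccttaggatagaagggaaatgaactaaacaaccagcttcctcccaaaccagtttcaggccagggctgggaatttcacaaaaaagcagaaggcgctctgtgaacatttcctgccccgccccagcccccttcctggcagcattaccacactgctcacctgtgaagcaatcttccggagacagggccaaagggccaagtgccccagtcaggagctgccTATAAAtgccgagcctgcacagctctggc
S100A8, chr1:153391074-153391323, minus strand: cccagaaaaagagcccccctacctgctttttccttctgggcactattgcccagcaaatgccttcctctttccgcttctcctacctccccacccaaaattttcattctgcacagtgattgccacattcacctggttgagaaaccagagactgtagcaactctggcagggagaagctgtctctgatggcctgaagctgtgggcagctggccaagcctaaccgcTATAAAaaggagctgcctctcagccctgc
S100P, chr4:6693628-6693877, plus strand: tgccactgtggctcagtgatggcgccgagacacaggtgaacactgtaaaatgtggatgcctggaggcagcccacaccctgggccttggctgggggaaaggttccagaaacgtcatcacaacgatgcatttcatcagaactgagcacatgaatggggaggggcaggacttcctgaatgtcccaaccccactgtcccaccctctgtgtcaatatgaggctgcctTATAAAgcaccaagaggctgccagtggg
S100A4, chr1:153545807-153546056, minus strand: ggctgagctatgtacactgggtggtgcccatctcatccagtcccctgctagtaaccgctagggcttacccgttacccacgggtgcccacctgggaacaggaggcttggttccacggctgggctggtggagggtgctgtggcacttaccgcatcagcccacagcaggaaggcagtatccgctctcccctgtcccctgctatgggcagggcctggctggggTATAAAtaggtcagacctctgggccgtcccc
S100A2, chr1:153565845-153566094, minus strand: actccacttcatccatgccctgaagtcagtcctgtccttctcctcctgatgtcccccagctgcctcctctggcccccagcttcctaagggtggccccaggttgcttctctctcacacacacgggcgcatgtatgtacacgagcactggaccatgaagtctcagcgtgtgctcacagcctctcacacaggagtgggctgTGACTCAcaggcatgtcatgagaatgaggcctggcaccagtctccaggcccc

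S100A6, S100A10 and S100A11, the genes of annexin-binding S100 proteins, were abundant in every library and changed by less. S100A10 (ENSG00000197747, chromosome 1, 151982915 to 151993859, minus strand), the calcium-insensitive partner of annexin A2, read 299, 269 and 265 TPM in the controls at 24 h and 187, 185 and 181 in the knockdown. It read 186, 180.1 and 178 TPM in the controls at 72 h and 124, 95.1 and 99.7 with overexpression. It was lower than its controls in both engineered populations, by 0.58 in the knockdown (log2 fold change -0.58, limma adjusted p = 0.000208) and by 0.78 with overexpression (log2 fold change -0.78, limma adjusted p = 4.37e-05). The difference between these effects was -0.19 (SE 0.13, limma adjusted p = 0.214) and passed without replicate 1 of the overexpressing cells (-0.31, adjusted p = 0.00622). After median-ratio rescaling this difference was 0.28, so no direction is given for it. S100A10 was thus lowered in both comparisons, where S100A9 was raised in both.

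S100A6 (ENSG00000197956, chromosome 1, 153534599 to 153536244, minus strand), known as calcyclin, had the highest TPM of the 10 genes in every group. It read 1111, 925 and 855 TPM in the controls at 24 h and 1408, 1618 and 1473 in the knockdown. It read 921, 839 and 832 TPM in the controls at 72 h and 844, 560.4 and 562 with overexpression, where replicate 1 overlapped the controls. The rise in the knockdown (log2 fold change 0.64, SE 0.16, limma adjusted p = 0.00404) shrank to 0.13 (adjusted p = 0.558) after median-ratio rescaling. The fall with overexpression (log2 fold change -0.42, SE 0.16, limma adjusted p = 0.0396) missed the threshold in 10 of 24 other settings, among them 8 that left out 1 library (replicate 2 of the 24 h controls, replicate 1 or 3 of the knockdown, any 72 h control, and replicate 2 or 3 of the overexpressing cells), with adjusted p from 0.0509 to 0.136.

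S100A11 (ENSG00000163191, chromosome 1, 152032506 to 152047907, minus strand), a partner of annexin A1, read 190, 156 and 175 TPM in the controls at 24 h and 186, 195 and 198 in the knockdown, and these groups overlapped. It read 147, 148 and 151 TPM in the controls at 72 h and 110, 93.9 and 97.4 with overexpression, all below the controls. It fell with overexpression (log2 fold change -0.56, SE 0.078, limma adjusted p = 0.000148). Its knockdown value of 0.15 (adjusted p = 0.106) passed without replicate 1 of the 24 h controls (0.22, adjusted p = 0.0316) and was -0.35 (adjusted p = 0.0117) after median-ratio rescaling, so no direction is given.

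S100A16 (ENSG00000188643, chromosome 1, 153606886 to 153613145, minus strand) and S100A14 (ENSG00000189334, chromosome 1, 153614255 to 153616986, minus strand) are neighbouring genes of widely expressed epithelial S100 proteins, of which S100A16 passed in the knockdown and S100A14 did not. S100A16 read 127, 104 and 116 TPM in the controls at 24 h and 299, 283 and 297 in the knockdown. It read 127, 126 and 136 TPM in the controls at 72 h and 113, 86.8 and 101 with overexpression. It rose 2.53-fold in the knockdown (log2 fold change 1.34, SE 0.096, limma adjusted p = 8.82e-07) and fell with overexpression (log2 fold change -0.38, SE 0.096, limma adjusted p = 0.00698), with no overlap in either comparison.

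S100A14 was the steadiest of the 9 tested genes, with group means within 1.19-fold of each other. It read 306, 258 and 274 TPM in the controls at 24 h and 288, 270.0 and 281 in the knockdown. It read 246, 225 and 233 TPM in the controls at 72 h and 320.2, 224 and 239 with overexpression. Groups next to each other in order of mean overlapped, but the 72 h controls all lay below the 24 h controls. That change did not pass (log2 fold change -0.25, limma adjusted p = 0.0961), a call kept in 17 of 24 other settings. Its changes were 0.01 in the knockdown (SE 0.12, limma adjusted p = 0.972) and 0.14 with overexpression (SE 0.12, limma adjusted p = 0.356). After median-ratio rescaling the knockdown value was -0.50 (adjusted p = 0.00993).

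Of 11 further S100 genes listed, 4 were in the table and all 4 were tested. S100A3, whose gene lies within the span of S100A4 on the same strand, so that their reads may not be fully separable, rose from 1.60 to 6.83 TPM in the knockdown (log2 fold change 1.59, limma adjusted p = 1.49e-07). With overexpression its libraries read 0.205, 0.0898 and 0 TPM against 1.60 to 1.94 in the controls (log2 fold change -1.31, limma adjusted p = 9.53e-07), the opposite directions to S100A4. S100A5 rose in the knockdown from 1.79 to 4.97 TPM (log2 fold change 1.10, limma adjusted p = 7.41e-05). S100A1 overlaps S100A13 on the opposite strand, and their reads may be mixed where libraries were unstranded, on which the sources used here say nothing. S100A1, near the floor of the filter, passed as higher in the knockdown (1.45 to 2.09 TPM, log2 fold change 0.33, limma adjusted p = 0.0312, 0.01 after rescaling). It rose with overexpression (0.894 to 1.80 TPM, log2 fold change 0.58, limma adjusted p = 0.00206). S100A13, which reached 18.5 TPM and also overlaps CHTOP on the opposite strand, passed in neither comparison.

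**Figure D3:**
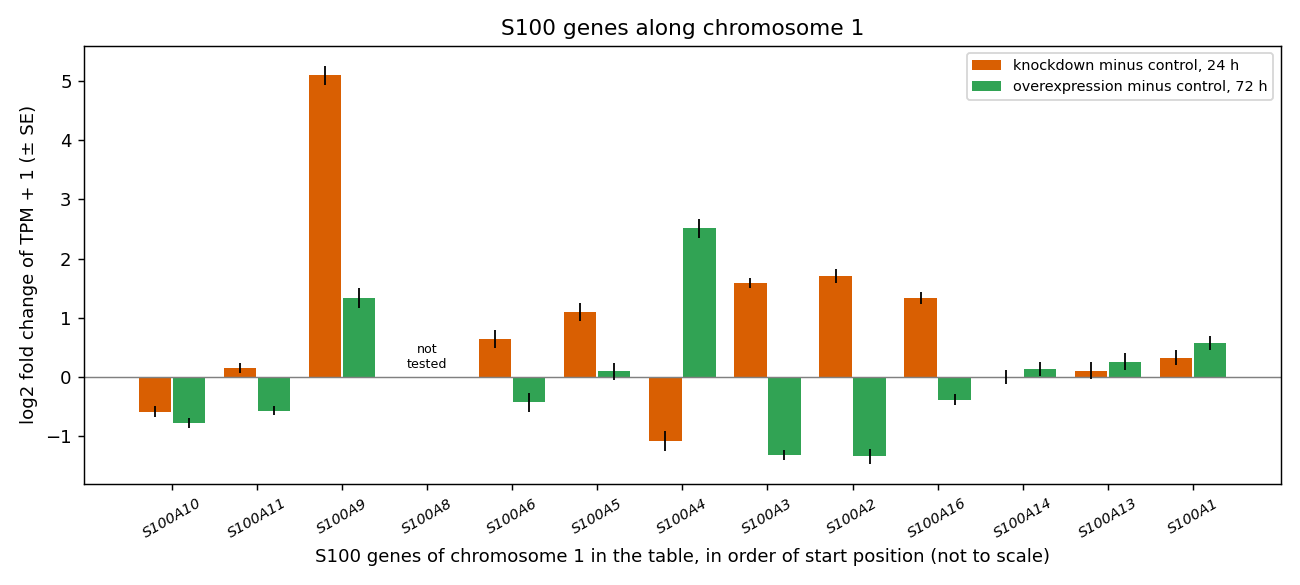
Log2 fold change (TPM + 1) with bars of 1 SE for the S100 genes of chromosome 1 in the table, in order of start position and not to scale, in the knockdown at 24 h and the overexpression at 72 h. S100A9 stands highest in the knockdown (5.09) and S100A4 with overexpression (2.51), while S100A3 next to it (-1.31) and S100A2 beyond S100A3 (-1.34) stand lowest there. S100A5 on its other side did not pass (0.10, adjusted p = 0.605), and S100A8 was not tested.

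The 72 h and 24 h controls were compared to show how the same genes stood in control cells at each time. The 24 h controls also serve the knockdown comparison, so the 2 sets of changes are not independent. From 24 h to 72 h 5 of 9 genes fell and 1 rose, against 61.0% of all genes passing, 52.9% higher and 8.10% lower (54.1%, 27.9% and 26.3% after median-ratio rescaling, when 7 S100 genes fell and 0 rose). S100P fell 4.04-fold (log2 fold change -1.93, SE 0.16, limma adjusted p = 5.63e-06), S100A2 by 0.91, S100A4 by 0.75 and S100A10 by 0.61 on the log2 scale, each with no overlap. The groups did not overlap for 6 of the 9 genes, against 69.2% of all genes tested. AGR2 itself fell by 1.86. S100A11 passed as lower by 0.22 (adjusted p = 0.0318), which was lost without any one of replicates 1 and 3 of the 24 h controls or any 72 h control, with adjusted p from 0.0604 to 0.119. S100A9 passed as higher (log2 fold change 0.48, limma adjusted p = 0.0262) with overlapping groups, and missed the threshold without replicate 1 or 2 of the 24 h controls or replicate 1 of the 72 h controls (adjusted p = 0.0609, 0.098 and 0.101) and after rescaling (0.23, adjusted p = 0.27).

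The overexpression and knockdown effects were also compared with each other, gene by gene, across the 2 time points at which they were measured. The difference was positive for 2 genes, S100P (8.27) and S100A4 (3.59), and negative for 5, S100A9 (-3.75), S100A2 (-3.05), S100A16 (-1.72), S100A6 (-1.07) and S100A11 (-0.72), while S100A10 and S100A14 did not pass. Over all genes 65.7% passed, 20.1% positive and 45.6% negative (63.9%, 32.2% and 31.7% after rescaling, which took S100A6 and S100A11 below the threshold and made S100A14 pass at 0.60). Opposite directions that both passed were seen for S100P, S100A4, S100A2, S100A16 and S100A6. For S100A6 the knockdown rise was lost after rescaling (0.13), and the overexpression fall kept its call in only 14 of 24 other settings. S100A9 and S100A10 passed in 1 direction in both comparisons, upward and downward. The shares of all genes with opposite or shared directions were not computed, so nothing is read from how many S100 genes showed either.

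**Figure D4:**
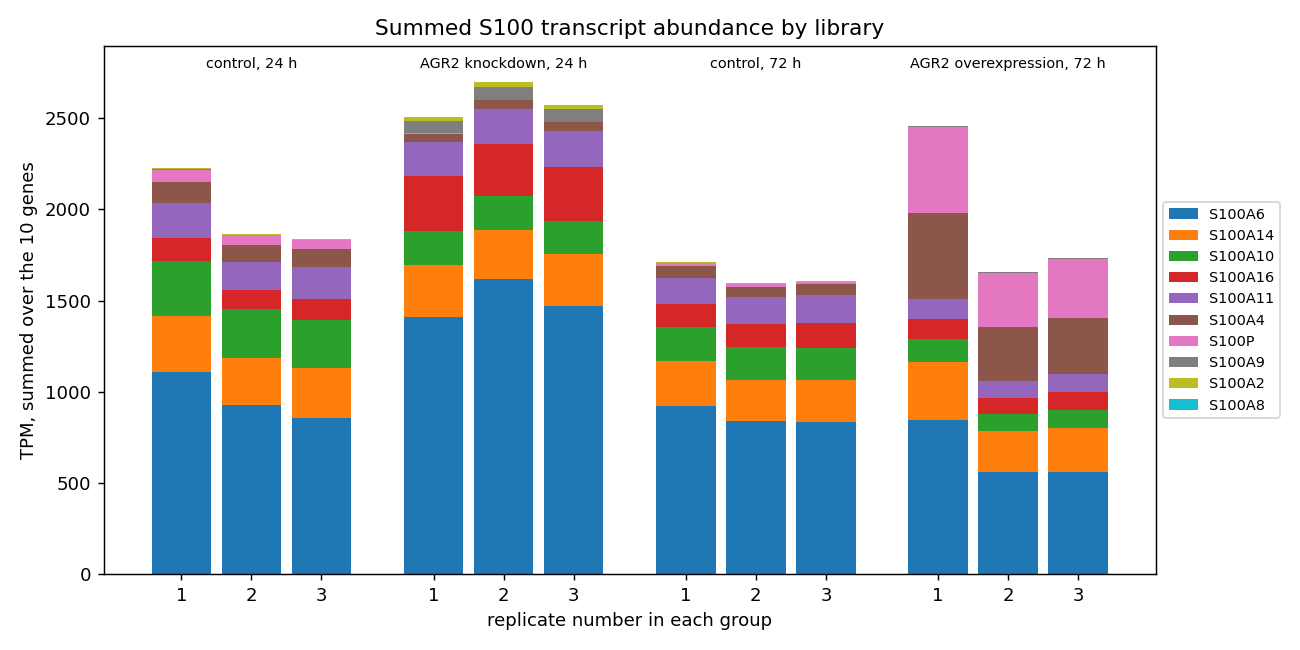
Summed TPM of the 10 S100 genes in each library, stacked by gene, for the 4 groups of 3 libraries. The sums lie between 1594 and 2696 TPM, with S100A6 the largest block in every library and S100P and S100A4 widest in the 3 overexpressing libraries.

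The size and make-up of the S100 RNA pool were compared between groups. The 10 genes summed to 1977 ± 218 TPM in the controls at 24 h and 2592 ± 95.3 in the knockdown, and to 1638 ± 64.0 in the controls at 72 h and 1949 ± 442 with overexpression (mean ± SD, n = 3). The last 2 groups overlapped, from 1594 to 1711 and from 1656 to 2457. Replicate 1 of the overexpressing cells held the 2457, while replicates 2 and 3 held 1656 and 1733. Shares within this pool do not depend on library scaling. S100P made up 2.83% of it in the controls at 24 h and 0.131% in the knockdown, and 0.847% in the controls at 72 h and 18.4% with overexpression. S100A4 went from 5.21% to 1.86% in the knockdown and from 3.70% to 18.2% with overexpression. S100A9 went from 0.053% to 2.62% and from 0.112% to 0.323%. S100A6 took 48.7% of the pool in the 24 h controls, 57.8% in the knockdown, 52.7% in the controls at 72 h and 33.5% with overexpression. S100A16 held 5.86% in the controls at 24 h and 11.3% in the knockdown.

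Intracellular partners of S100 proteins were described from a list of 11, all tested. In the knockdown 8 rose and 1 fell, where 53.6% of all genes tested rose and 11.9% fell (6 and 4 after median-ratio rescaling, against 29.4% and 29.9%), with a median change of 0.70 against 0.35 over all genes. The largest were CACYBP, the calcyclin-binding protein (27.2 to 65.0 TPM), ANXA6 (4.07 to 9.48), ANXA5 (29.3 to 61.0) and the scaffold IQGAP1 (6.27 to 13.5). With overexpression 1 rose and 7 fell, against 29.9% and 25.5% of all genes tested, with a median of -0.54 against 0.03. Nothing particular to the list is read from these counts. MYH9, the non-muscle myosin heavy chain bound by S100A4, fell from 127 to 50.1 TPM (log2 fold change -1.34, limma adjusted p = 3.51e-06) where S100A4 rose. At 24 h MYH9 averaged 43.0 TPM in the controls and 70.5 in the knockdown (log2 fold change 0.70, limma adjusted p = 0.000211). That call was lost after rescaling (0.20, adjusted p = 0.0649). With overexpression IQGAP1 fell from 12.5 to 4.99 TPM and ANXA5 from 36.4 to 16.5, while ANXA11 rose from 34.9 to 59.9.

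Of 9 receptors of secreted S100 proteins, 6 were in the table and 5 were tested. In the knockdown 3 passed as higher and 0 as lower, beside 53.6% and 11.9% of all genes tested. But AGER (0.32) and NPTN (0.24) changed sign after rescaling, where 1 rose and 3 fell, beside 29.4% and 29.9% of all genes tested. MCAM, a cell adhesion receptor that binds S100A8 and S100A9, rose from 23.8 to 65.9 TPM in the knockdown (log2 fold change 1.43, limma adjusted p = 1.39e-07). With overexpression 1 rose and 4 fell, beside 29.9% and 25.5% of all genes tested, and 5 genes are too few to read a share from. AGER, which encodes RAGE, rose from 2.39 to 6.65 TPM, while MCAM fell from 103 to 30.1, ALCAM from 11.1 to 4.67 and NPTN from 7.00 to 5.12 TPM. AGER did not follow S100P over the 4 groups. It averaged 5.44 TPM in the 24 h controls and was highest, at 7.06 TPM, in the knockdown, where S100P was lowest (3.38 TPM).

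Genes of the cornified envelope, the cross-linked protein shell of squamous cells, share the chromosome 1 cluster with S100 genes. Of 25 listed, 13 were in the table and 7 were tested. Of these 7, 3 passed the filter only through the group where they were high, SPRR2A and SPRR2D through the knockdown and HRNR through the 72 h controls, so they had to differ and the list's counts support nothing. In the knockdown 4 rose and 0 fell, where 53.6% of all genes tested rose and 11.9% fell. After rescaling 3 rose and 1 fell, where 29.4% of all genes tested rose and 29.9% fell. Without those 3 genes 2 of 4 rose (1 rose and 1 fell after rescaling). The small proline-rich gene SPRR1B rose from 4.14 to 33.1 TPM (log2 fold change 2.72). SPRR2A went from 0.0917 to 3.00 TPM and SPRR2D from 0.74 to 3.68. SPRR1A rose from 10.3 to 17.7 TPM (log2 fold change 0.74), a call lost after median-ratio rescaling (0.26, adjusted p = 0.108). With overexpression 0 rose and 6 fell (0 and 5 rescaled), beside 29.9% and 25.5% of all genes tested (27.8% and 28.6% rescaled). Without those 3 genes 4 of 4 fell. SPRR1B stood at 2.04 TPM in the controls at 72 h and was listed at 0 in all 3 overexpressing libraries, and IVL, the envelope precursor involucrin, fell from 8.97 to 2.55 TPM. SPRR3 fell from 5.52 to 1.63 and HRNR, which encodes a protein with an S100-type domain, from 1.70 to 0.188 TPM. Within the span of the cluster (chromosome 1, 151982915 to 153634412) 36 genes were in the table. Of the 11 named genes outside the S100 family that were tested there, 6 rose and 0 fell in the knockdown (3 and 1 after rescaling). With overexpression 1 rose and 6 fell (1 and 5 after rescaling). The shares of all genes tested are those given above for each scaling, and nothing about the cluster is read from these counts. SPRR2A, SPRR2D and HRNR are among these 11, and of the other 8, 4 rose and 0 fell in the knockdown (1 and 1 after rescaling) and 1 rose and 4 fell with overexpression. The pseudogene LAPTM4BP1 was among those that rose in the knockdown (0.873 to 2.35 TPM), a call lost after rescaling.

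Genes with the pattern most like that of S100A9 and S100P were found by the root mean square difference of log2(TPM + 1), centred over the 12 libraries. They had to have a symbol, lie outside the S100 family and average at least 5 TPM in 1 group. Closest to S100A9 were MAGEC2 (0.496), NAP1L2 (0.785), DUSP6 (0.827), MT1E (0.858) and RNASE1 (0.875). MAGEC2, a cancer-testis antigen gene, averaged 2.15 TPM in the 24 h controls, 78.6 in the knockdown, 6.85 in the controls at 72 h and 13.9 with overexpression. DUSP6, which encodes an ERK phosphatase, averaged 0.937, 14.2, 0.993 and 3.39 TPM in the same order. NAP1L2 averaged 0.0515, 10.2, 0.0217 and 0.097 TPM in that order, and MT1E 0.026, 8.25, 0 and 0. Unlike S100A9, both stayed near or at 0 with overexpression. NAP1L2 and MT1E passed the filter only through the knockdown, so they had to stand high there and their likeness to S100A9 supports nothing. Closest to S100P were KRT13 (0.615), CFD (0.674), GPC1-AS1 (0.732), ADIRF (0.818) and UPK2 (0.843). KRT13, a keratin of stratified epithelium, averaged 55.4 TPM in the 24 h controls, 1.45 in the knockdown, 23.8 in the controls at 72 h and 241 with overexpression. Among the S100 genes themselves the closest pair was S100A6 and S100A11 (0.225), and S100A9 and S100P differed by 3.78.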

How the data were processed

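Total RNA was made into Illumina libraries, per the labels' protocols, and reads were aligned with STAR 2.7.8a to hg38/GRCh38, per the submitters' processing notes. The sources used here name no quantifier, annotation or strandedness. Values are TPM, in a table that the authors deposited, of 12 libraries and 30225 genes. TPM sum to a fixed total, so a rise of abundant genes lowers the others, and they keep no depth, so no counting interval is given.

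The 15721 genes that reached 1 TPM in 3 or more libraries were tested as log2(TPM + 1) in limma 3.58.1 under R 4.3.3, with 4 group means over all 12 libraries, 8 residual degrees of freedom, an intensity trend and two-sided tests. P-values were adjusted by Benjamini-Hochberg over all tested genes with a threshold of 0.05. Folds are ratios of mean TPM. The fit was tested on simulated data. Named genes are the 10 S100 genes, other tested S100 genes, up to 4 called genes with the largest change per list and contrast, the 5 genes most like S100A9 and S100P, and AGR2. The genes and lists were chosen with earlier results of these data known. Alternatives were the pseudocount, the filter, 3 scalings (median ratio to the geometric mean library, quantile, and protein-coding genes outside the mitochondrial genome), robust shrinkage, the libraries fitted, a replicate block and leaving out each library. A correction for transcript length and GC content (GENCODE 29) and leaving out 2 libraries together were chosen after seeing the data. Scripts used Python 3.11.15.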

Additional observations from a re-analysis of the deposited data

How the results depend on the processing

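In the knockdown and the overexpression, S100A9, S100P, S100A4, S100A2, S100A10 and S100A16 kept direction and call in all 24 other settings. Scaling moved the weaker results. With median-ratio scaling and with quantile normalisation 5 S100 genes were lower in the knockdown and 0 were higher at 72 h than at 24 h, which was also 0 when only the compared libraries were fitted. With median-ratio scaling 3 genes had a negative difference between the effects. Sign changes came with median-ratio, quantile and length and GC correction in the knockdown for S100A11 (-0.35, -0.15 and -0.063) and S100A14 (-0.50, -0.32 and -0.27). With median-ratio and quantile scaling S100A16 turned to -0.27 and -0.038 over time, and the S100A10 difference to 0.28 and 0.026. Without both replicate 1 libraries the S100A14 overexpression value was -0.018 and its difference -0.091. The causes were not tested.

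Leaving out 1 library at a time, the genes called were 4 to 5 higher and 3 to 3 lower in the knockdown, 3 to 3 higher and 4 to 5 lower with overexpression, 0 to 1 higher and 4 to 6 lower over time, and 2 to 2 positive and 5 to 6 negative differences. S100A14 ranged from -0.050 to 0.072 in the knockdown, -0.018 to 0.24 with overexpression and -0.024 to 0.23 for the difference. The S100A9 to S100A8 ratio difference ranged from 4.63 to 5.01 in the knockdown and 0.92 to 1.31 with overexpression.

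Same-numbered libraries did not deviate together (correlations -0.16, 0.01 and 0.06 for the knockdown, -0.05, -0.03 and 0.04 for the overexpression). Such correlations cannot show whether same-numbered libraries were cultured or handled together, on which the labels say nothing. The replicate block gave 4 higher and 3 lower genes in the knockdown, 3 and 5 with overexpression, 1 and 6 over time and 2 and 5 for the difference. The gene it added was S100A14 over time (-0.25, adjusted p = 0.0302 by limma). The depth of the libraries is unknown, so what it limits cannot be given, and the low values of S100A8 and S100A3 rest on an unknown number of reads.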
